A study of Mus musculus with 2 samples.

Results

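The genes described here are complement components that hepatocytes make: the central component C3, the convertase components C2, C4b and Cfb, and the terminal components Hc (complement C5), C6, C8a, C8b, C8g and C9. They were taken by symbol from a table of 8551 genes, and 9 of the 10 had a row. C4b had no row and is not analysed here. The table compares the liver of normal C57BL/6 male mice (genotype wild type) with the liver of diabetic db/db male mice, a model of type 2 diabetes, whose labelled strain background is also C57BL/6. All animals were 9 weeks old, had free access to chow and water, and gave their livers about 3 h into the light phase. There was 1 library per group. The methods give 12 mice per group and name a pair of suppliers, but not which group came from which supplier, nor how many livers went into each library. With no replicate library, no difference below has a check against the spread between animals, and no p-value is given.

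Complement is a cascade of plasma proteins that marks microbes and damaged cells and can perforate their membranes. The classical and lectin pathways join C2 and C4 into an enzyme that cleaves C3, and the alternative pathway builds a second such enzyme from C3 itself and factor B, the product of Cfb. Cleavage of C5 then starts the terminal steps, in which C5b binds C6 and C7, C8 joins as a complex of an alpha, a beta and a gamma chain, and C9 completes the membrane attack complex. The liver is the main source of most of these proteins in plasma, and several of them increase in the acute-phase response to inflammatory cytokines.

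Expression was measured by digital gene expression tag profiling. cDNA of poly(A) RNA was cut with the restriction enzyme DpnII at GATC, and short tags next to the cut were sequenced and counted. The deposited value is TPM, tags of a gene per 1000000 clean tags of its library. In this method the 3′-most cut site of a transcript is the usual tag position, so the sequences that stand for these genes are shown first. They are the first 20 bases from the 3′-most DpnII site of a RefSeq-linked GENCODE M21 transcript (GRCm38) of each gene, 5′ to 3′ on the transcript strand, with the cut site in capitals. The tag length and the site used for the deposited values are not given in the sources used here, so these are predicted tags.

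C3: GATCagaagtaccagaaaca
C2: GATCatgagacagaacttct
Cfb: GATCcctatgctgaccccaa
Hc: GATCaaacacaatttcagtt
C6: GATCaaggctctggagataa
C8a: GATCaacatggaggagactt
C8b: GATCagtgcatgataatttg
C8g: GATCagattcttttctttcc
C9: GATCtatgaaaccaaggctg

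Every one of the 9 transcripts held at least 1 site, from 1 in C8g to 19 in C3. The C8g tag lies at chr2:25499022-25499041 on the minus strand, in coding sequence of exon 5 of 7, and all 7 annotated transcripts of the gene hold it. The C8a and Cfb tags are also in all annotated transcripts, 4 and 8. Other tags are in only part of them: 1 of 5 for C6, 1 of 4 for C9 and 2 of 5 for Hc. For C3 it is 2 of 4, for C2 3 of 8 and for C8b 2 of 3. Use of the transcripts without the tag was not tested. The C6 tag at chr15:4803855-4803874 (plus strand, exon 16 of 16), the C8a tag at chr4:104815891-104815910 (minus strand, exon 11 of 11) and the C8b tag at chr4:104804293-104804312 (plus strand, exon 12 of 12) lie in 3′ UTRs. The other tags are coding: C3 at chr17:57204071-57204090 in exon 41 of 41, Cfb at chr17:34857015-34857034 in exon 16 of 18, and Hc at chr2:34984702-34984721 in exon 40 of 41, all on the minus strand. The C2 tag spans the junction of exons 14 and 15 of 18, and the C9 tag that of exons 5 and 6 of 11. The C9 site stands 1381 bases before the transcript end, against 121 to 706 bases for the other genes. The C2 and Cfb tags also occur in Gm20547, an annotated transcript unit that overlaps both genes and has no row in the table, so reads of it cannot be told apart from theirs. No other gene held any of these tags, on either strand.

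**Figure D1:**
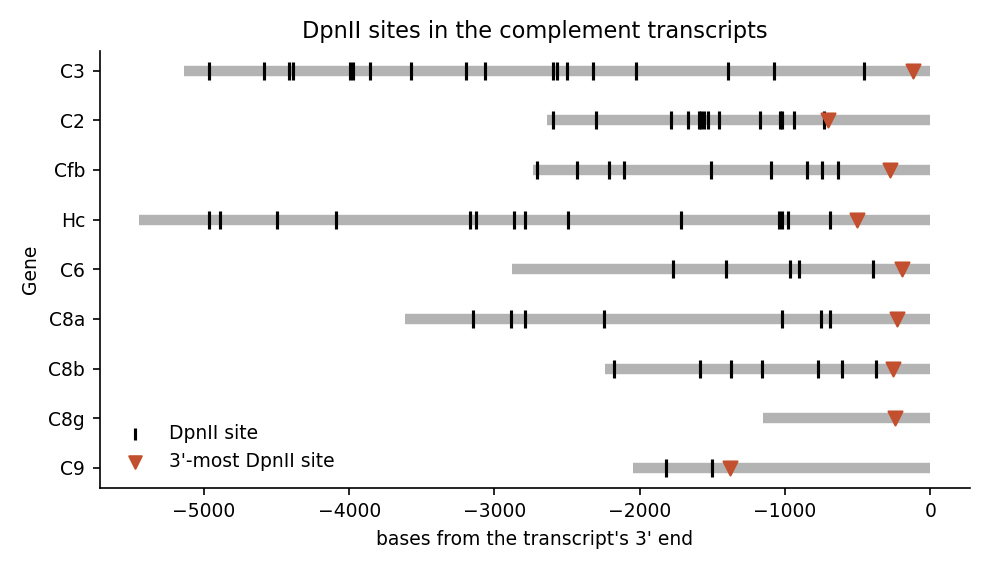
DpnII sites (black ticks) along the transcript of each of the 9 listed complement genes (grey bars), with the x axis in bases from the 3′ end and the red triangle at the 3′-most site. C8g has 1 site, C3 has 19, and the 3′-most site of C9 stands 1381 bases from the end.

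Clean tags numbered 10278531 for normal liver and 13508232 for diabetic liver, as found from the step between values, so that 1 tag was worth 0.0973 TPM and 0.0740 TPM. All 9 genes had at least 495 tags in each library. Intervals of ratios below are exact 95% intervals from the tag counts. They cover counting error only, and the tags carry no molecular identifiers. Ratios are diabetic over normal liver, and their median log2 over all 8551 listed genes was 0.25. Lepr, the gene mutated in db/db mice, had no row, so it gives no check of the labels. Male-biased liver genes and female-biased liver genes also separated the libraries, although both labels read male. Both lists were chosen with earlier results of these data known, so their counts are not independent evidence. They hold genes that the study names among its top changes, such as Mup3, Hsd3b5, Slco1a1, Cyp2b9 and Cyp2b13. Of 12 male-biased genes 7 had a row, and 7 of 7 were at least 1.5-fold lower in the diabetic library. Of 14 female-biased genes 10 had a row, and 10 of 10 were at least 1.5-fold higher. The female-biased count was partly fixed by the listing rule, since genes with a mean under 1 have no row. Of those 10 genes, 7 had no tag in the normal library. These 7 were listed through the diabetic library alone and could only come out higher. The same holds for Sult2a2, at 0.19 TPM (2 tags) in normal and 148.06 TPM in diabetic liver. Hsd3b5, a male-biased gene at 103.22 TPM in normal and 0.30 TPM in diabetic liver, was listed through the normal library alone. It could only come out lower. The part of the sex-biased genes in the complement values was not tested.

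C6, C8a, C8b and Cfb were at least 1.5-fold lower in diabetic mouse liver, C3 was at least 1.5-fold higher, and Hc, C2, C8g and C9 stayed within 1.5-fold. So 4 of the 9 genes were lower and 1 was higher. The study listed those 4 among complement and coagulation genes chosen on these samples, so their direction is not independent evidence. Among all listed genes 15.3% were lower by this rule and 34.4% were higher. With an added FDR under 0.001, from an exact binomial test that compares these 2 libraries and not the conditions, the same 4 and 1 genes passed, and the shares of all listed genes were 8.19% lower and 22.9% higher. Of the 1407 listed genes whose mean reached 40 TPM, a limit chosen after the values were seen and met by all 9 complement genes, 11.5% were lower and 39.4% were higher. The median log2 ratio of the 9 genes was -0.42.

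**Figure D2:**
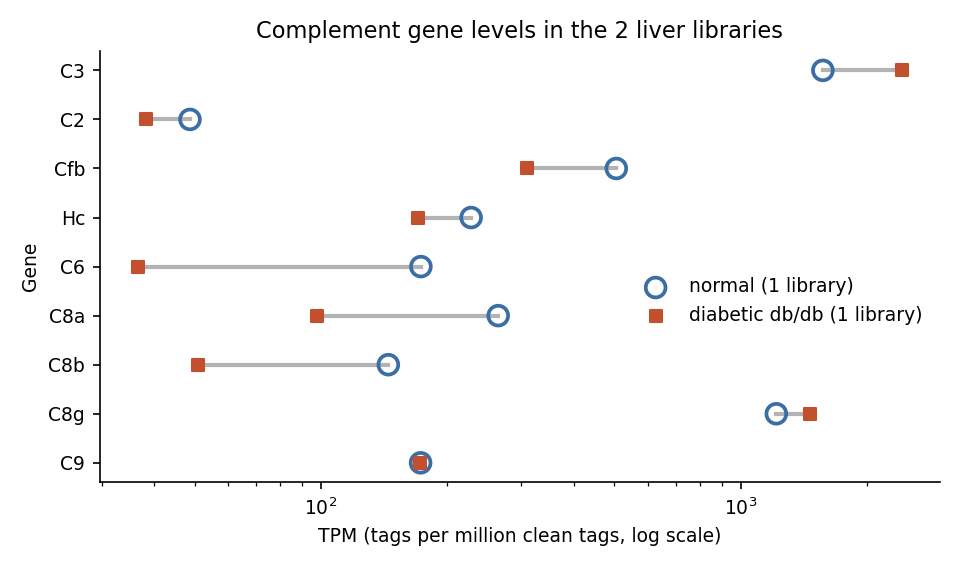
Deposited level of each complement gene in TPM (x axis, log scale) in the normal library (open circles) and the diabetic library (filled squares), 1 library each, joined by a grey line. C6, C8a and C8b show the widest gaps to the left, C3 and C8g lie to the right of their normal value, and the values of C9 coincide at 172.69 and 171.67 TPM.

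C3 (Entrez 12266; chr17:57203970-57228136, minus strand), the component at which all 3 pathways meet, was at 1569.00 TPM (16127 tags) in normal and 2416.08 TPM (32637 tags) in diabetic liver. This is a 1.54-fold higher level (log2 ratio 0.62, 95% interval 0.60 to 0.65), close to the 1.5-fold line, and 67.5% of the listed genes had a lower ratio. C3 gave the most tags of the 9 genes in both libraries.

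Cfb and C2, which encode the proteases of the convertases, were both below their normal level, Cfb by more than 1.5-fold. Cfb (Entrez 14962; chr17:34856374-34862518, minus strand), which encodes factor B, the serine protease of the alternative convertase, was at 505.23 TPM (5193 tags) in normal and 309.00 TPM (4174 tags) in diabetic liver. It was 1.64-fold lower (log2 ratio -0.71, 95% interval -0.77 to -0.65). C2 (Entrez 12263; chr17:34862604-34898265, minus strand), the homologous protease of the classical and lectin convertase, was at 48.74 TPM (501 tags) and 38.27 TPM (517 tags), with a log2 ratio of -0.35 (95% interval -0.53 to -0.17). Cfb and C2 are neighbours on the same strand with 85 bases between them. The ratio of Cfb was lower than that of C2 by a log2 difference of -0.36 (95% interval -0.55 to -0.17). Differences between genes of the same library pair, here and below, do not depend on the scaling, and 6 such pairs were compared.

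Among the terminal components, Hc (Entrez 15139; chr2:34983331-35061438, minus strand), which encodes C5, the source of the chemoattractant C5a and of C5b, was at 227.85 TPM (2342 tags) and 169.82 TPM (2294 tags). Its log2 ratio was -0.42 (95% interval -0.51 to -0.34), short of 1.5-fold. C3 and Hc, homologs that are cleaved one after the other, differed in log2 ratio by 1.05 (95% interval 0.96 to 1.13). The TPM of C3 was 6.89 times that of Hc in normal and 14.2 times in diabetic liver.

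C6 (Entrez 12274; chr15:4727175-4814967, plus strand), which binds C5b to begin the membrane attack complex, differed most of the 9 genes. It was at 172.98 TPM (1778 tags) in normal and 36.64 TPM (495 tags) in diabetic liver, 4.72-fold lower (log2 ratio -2.24, 95% interval -2.39 to -2.09). Only 1.12% of all listed genes had a lower ratio. C9 (Entrez 12279; chr15:6445327-6498751, plus strand), the pore-forming component and a relative of C6 on the same chromosome, was level at 172.69 TPM (1775 tags) and 171.67 TPM (2319 tags), with a log2 ratio of -0.01 (95% interval -0.10 to 0.08). C6 and C9 thus had nearly the same TPM in the normal library and differed in log2 ratio by -2.23 (95% interval -2.40 to -2.06). They lie 1630359 bases apart with 8 coding genes between them.

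The 3 chains of C8 differed in their ratios. C8a (Entrez 230558; chr4:104815679-104876398, minus strand), the alpha chain, was at 264.34 TPM (2717 tags) and 97.79 TPM (1321 tags), 2.70-fold lower (log2 ratio -1.43, 95% interval -1.53 to -1.34). C8b (Entrez 110382; chr4:104766317-104804548, plus strand), the beta chain, was at 144.67 TPM (1487 tags) and 50.86 TPM (687 tags), a 2.84-fold lower level. C8g (Entrez 69379; chr2:25498651-25501719, minus strand), the gamma chain and a lipocalin rather than a perforin-like protein, was at 1215.35 TPM (12492 tags) and 1464.14 TPM (19778 tags), with a log2 ratio of 0.27 (95% interval 0.24 to 0.30).

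C8a and C8b lie 11130 bases apart on opposite strands with no coding gene between them, and their log2 ratios differed by 0.07 (95% interval -0.09 to 0.24), which includes no difference. Against C8g, the log2 ratio was lower by a difference of -1.70 (95% interval -1.80 to -1.60) for C8a and of -1.78 (95% interval -1.91 to -1.64) for C8b. The C8g gene overlaps Fbxw5 on the other strand, which was level at 26.56 TPM and 25.24 TPM. The C2 gene overlaps Zbtb12 on the other strand, which had 20 and 10 tags (log2 ratio -1.40, 95% interval -2.65 to -0.23). C8a and Hc also overlap annotated genes on the other strand, Gm17662 and Gm13449.

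The summed tags of the 9 genes made up 0.432% of all clean tags in normal and 0.475% in diabetic liver. The 95% Wilson score intervals of these shares were 0.428% to 0.436% and 0.472% to 0.479%. The log2 ratio of the summed tags was 0.14 (95% interval 0.12 to 0.16). In the deposited values the sign of this sum rested on C3, without which the log2 ratio was -0.24 (95% interval -0.26 to -0.21), and the other scalings described below also turned it. C3 made up 36.3% of these tags in normal and 50.8% in diabetic liver, while C6 went from 4.0% to 0.771%, C8a from 6.12% to 2.06% and Cfb from 11.7% to 6.50%. The 6 terminal genes together had a log2 ratio of -0.14 (95% interval -0.17 to -0.12). The 5 of them other than C8g had -0.90 (95% interval -0.94 to -0.86). This split was made with the values known, and C8g gave the most terminal tags and the only terminal ratio above 0.

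**Figure D3:**
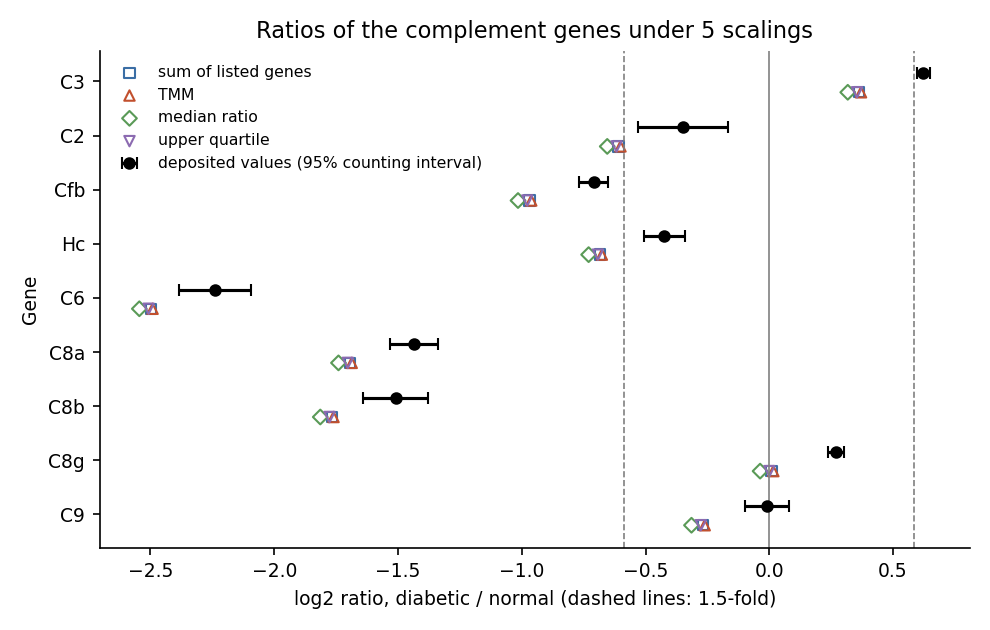
Log2 ratio of diabetic to normal liver for each complement gene (x axis) under 5 scalings: black points are the deposited values with 95% counting intervals, and open symbols are the same ratios under 4 other scalings. Every open symbol lies to the left of its black point, C2 and Hc cross the dashed 1.5-fold line on the left, and C3 falls back inside the line on the right.

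The direction of part of these results depends on what the libraries are scaled to. Under scaling to the sum of the listed genes, TMM, median-ratio and upper-quartile scaling, every log2 ratio was lower by 0.25 to 0.31 than in the deposited values. C6, C8a, C8b and Cfb were past 1.5-fold under all 5 scalings. Hc (-0.73 to -0.68) and C2 (-0.65 to -0.60) were past 1.5-fold under the 4 other scalings, and C3 (0.32 to 0.37) was within it. C8g went from 0.27 to near 0, with 0.02 under TMM and a value below 0, -0.04, under median-ratio scaling alone. C9, level in the deposited values at -0.01, had -0.31 to -0.26 under the 4 other scalings, within 1.5-fold. The summed tags of all 9 genes, at 0.14 in the deposited values, had a log2 ratio of -0.17 to -0.11 under the 4 other scalings. With TMM, 6 of the 9 genes were lower and 0 higher, where 23.6% of all listed genes were lower and 24.0% higher.

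**Figure D4:**
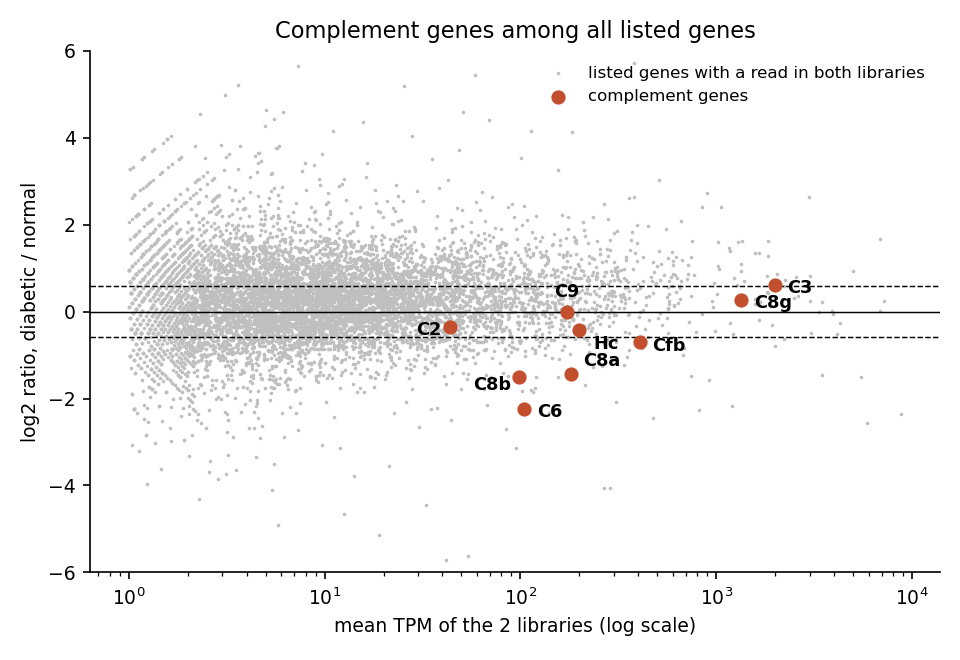
Log2 ratio of diabetic to normal liver (y axis) against the mean TPM of the libraries (x axis, log scale) for 8493 of the 8499 genes with a tag in both libraries (grey; 6 lie beyond the axis), with the complement genes in red and dashed lines at 1.5-fold. C6, C8a and C8b lie below most genes of like level, and C3, C8g and C9 lie inside the grey cloud.

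Promoter sequences, 250 bases before to 50 bases after the annotated start, were found in RefSeq (GRCm38.p6) for 7 of the 9 genes. C2 and Cfb had no entry, and C8g had a pair of windows. The windows of C6, C8a and C8b, the genes with the lowest ratios, and of C3, the gene with the highest, are shown 5′ to 3′ on the gene strand, with the motif letters that were found in capitals. They lie at chr15:4726960-4727259 (C6, plus strand), chr4:104876349-104876648 (C8a, minus strand), chr4:104766067-104766366 (C8b, plus strand) and chr17:57228087-57228386 (C3, minus strand).

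C6: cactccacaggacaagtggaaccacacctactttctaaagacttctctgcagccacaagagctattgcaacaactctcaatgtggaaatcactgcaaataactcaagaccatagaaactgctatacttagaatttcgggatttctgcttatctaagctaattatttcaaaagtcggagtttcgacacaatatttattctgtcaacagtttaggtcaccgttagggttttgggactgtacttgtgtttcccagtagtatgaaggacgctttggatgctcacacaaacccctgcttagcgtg
C8a: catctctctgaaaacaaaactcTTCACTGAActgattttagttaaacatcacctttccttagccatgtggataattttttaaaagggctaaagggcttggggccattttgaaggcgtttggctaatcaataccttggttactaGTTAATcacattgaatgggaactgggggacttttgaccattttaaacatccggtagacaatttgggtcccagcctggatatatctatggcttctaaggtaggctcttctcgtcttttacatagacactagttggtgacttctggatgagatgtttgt
C8b: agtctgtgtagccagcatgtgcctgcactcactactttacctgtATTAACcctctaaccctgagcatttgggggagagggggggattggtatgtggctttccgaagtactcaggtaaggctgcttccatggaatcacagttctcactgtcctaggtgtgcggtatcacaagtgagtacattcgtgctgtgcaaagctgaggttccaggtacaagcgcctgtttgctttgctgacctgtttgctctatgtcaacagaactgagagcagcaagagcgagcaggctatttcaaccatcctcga
C3: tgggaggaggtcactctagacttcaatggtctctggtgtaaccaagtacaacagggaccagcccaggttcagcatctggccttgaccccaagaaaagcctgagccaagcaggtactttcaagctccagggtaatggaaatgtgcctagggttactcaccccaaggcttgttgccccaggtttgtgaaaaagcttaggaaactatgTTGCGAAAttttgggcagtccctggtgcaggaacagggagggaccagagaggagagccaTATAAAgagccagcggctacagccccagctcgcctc

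The letters searched on both strands were TATAAA for the TATA box, TTCNNNGAA for STAT factors, CAAAGTCCA for HNF4, GTTAAT for part of the HNF1 site, TTGCNNAA for C/EBP factors, GGGANTTTC for part of the NF-kB site and GAAANNGAA for part of the interferon response element. C8a held TTCACTGAA 228 bases before the start and GTTAAT 107 bases before it. C8b held ATTAAC, the reverse complement of GTTAAT, 206 bases before the start. Hc held the same letters 74 bases before its start and TATAAA 239 bases before it. C3 held TTGCGAAA 45 bases before the start and TATAAA 14 bases after it, and C9 held TTGCATAA 132 bases before. C6 and both C8g windows held none of these letters. Of all 32851 promoters in the table, 13.6% held TATAAA, 8.30% TTCNNNGAA, 0.475% CAAAGTCCA, 7.10% GTTAAT, 10.8% TTGCNNAA, 1.11% GGGANTTTC and 8.56% GAAANNGAA. These matches describe letters only, and short motifs such as these occur in many promoters.

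The cascade around these 9 genes was also measured. Of 45 other complement genes 27 had a row. Of these, 10 were at least 1.5-fold lower and 5 higher (10 and 4 with TMM), with a median log2 ratio of -0.12. The shares over all listed genes were 15.3% lower and 34.4% higher (23.6% and 24.0% with TMM). Cfd and Cd93, both among the higher genes, were at 0.49 and 0.88 TPM in normal liver. They were listed through the diabetic library alone and could only come out higher there. Among 12 listed genes of classical and lectin initiation 5 were lower and 1 was higher (5 and 0 with TMM). C1qa and C1qc, chains of the recognition molecule C1q that macrophages make, were both lower with log2 ratios of -1.80. C1qa was at 176.48 and 50.71 TPM, and C1qc at 11.09 and 3.18 TPM. Both are also in the study's set of complement and coagulation genes chosen on these samples, so their direction is not independent evidence. The remaining chain C1qb stood at 38.14 and 57.82 TPM (log2 ratio 0.60, 95% interval 0.42 to 0.78), and was within 1.5-fold under TMM. The mannose-binding lectins, which hepatocytes make, were near level, with log2 ratios of 0.03 for Mbl2 and 0.11 for Mbl1. C1rb had -0.20 and Masp2 0.29. With TMM, both Mbl2 and Mbl1 lay below 0.

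**Figure D5:**
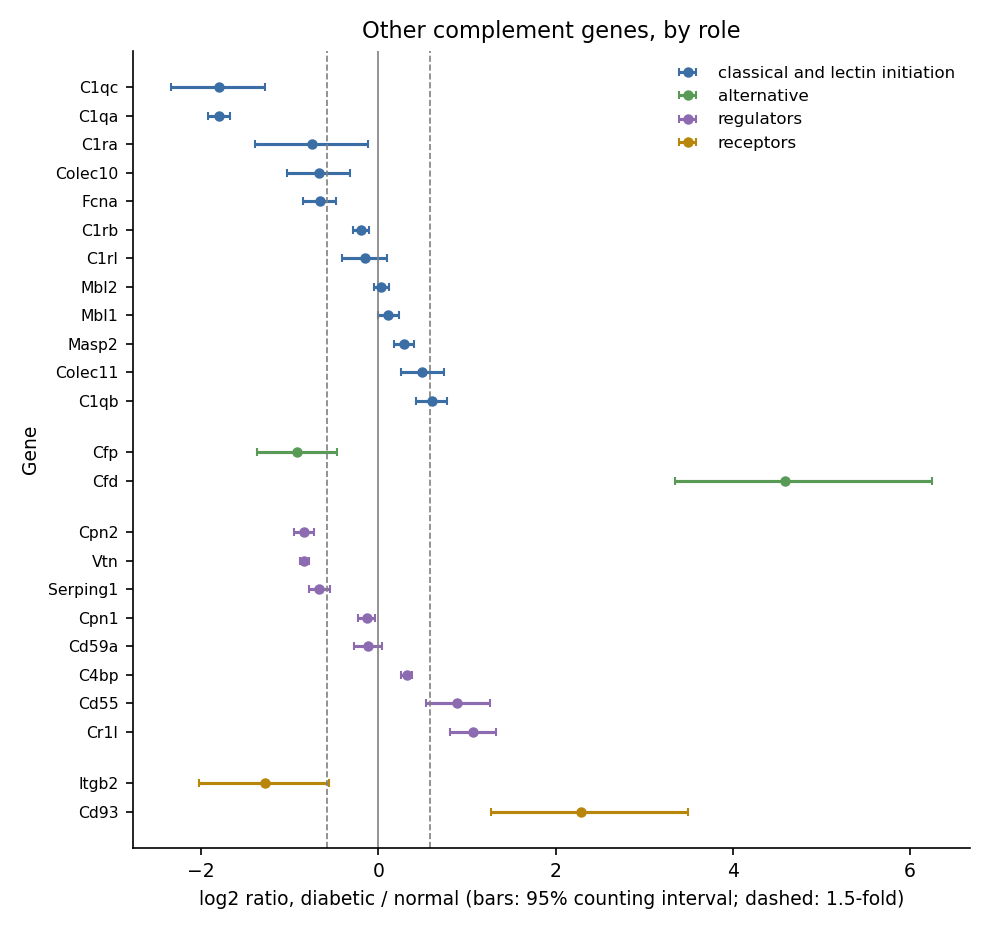
Log2 ratio of diabetic to normal liver (x axis) for 24 of the 27 listed complement genes outside the main set, by role (colours), with 95% counting intervals as bars and dashed lines at 1.5-fold. Cfd, listed through the diabetic library alone, stands far to the right with a wide interval from 5 and 160 tags. C1qa and C1qc stand to the left.

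Cfd, the protease (adipsin) that cleaves factor B and is known chiefly from fat tissue, had 5 tags (0.49 TPM) in normal and 160 tags (11.84 TPM) in diabetic liver (log2 ratio 4.59, 95% interval 3.35 to 6.25). Cfp, properdin, which stabilises the alternative convertase, was at 9.92 and 5.26 TPM (log2 ratio -0.92, 95% interval -1.37 to -0.47). Of 11 listed regulators 3 were lower and 2 were higher, and the same with TMM. For all listed genes the shares were 15.3% and 34.4% (23.6% and 24.0% with TMM). Vtn, vitronectin, which binds and holds back the terminal complex, was at 872.89 TPM in normal and 489.33 TPM in diabetic liver (log2 ratio -0.83, 95% interval -0.88 to -0.79). Cpn2, a subunit of the carboxypeptidase that inactivates C3a and C5a, had a log2 ratio of -0.84 (95% interval -0.95 to -0.73), and Cpn1, its catalytic subunit, had -0.13. Cr1l, which encodes the membrane regulator Crry, was higher (log2 ratio 1.07, 95% interval 0.81 to 1.33). C4bp, which encodes a fluid-phase regulator of the classical and lectin pathways, had a log2 ratio of 0.32. Of the receptors only 2 of 9 had a row: Cd93 had 9 and 58 tags, and the integrin chain Itgb2 had 48 and 26.

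Of 22 genes for cytokine signalling and transcription factors that act on complement genes in hepatocytes, 19 had a row. With 5 lower and 5 higher (7 and 2 with TMM), their median log2 ratio was 0.00. By the same rule 15.3% of all listed genes were lower and 34.4% higher (23.6% and 24.0% with TMM). Il1r1, the interleukin-1 receptor, was at 181.06 TPM in normal and 50.41 TPM in diabetic liver (log2 ratio -1.84, 95% interval -1.97 to -1.72). Hnf4a, a main hepatocyte transcription factor, was lower (log2 ratio -1.07, 95% interval -1.21 to -0.92), as was Jak1, a kinase of the interleukin-6 receptor (log2 ratio -1.13, 95% interval -1.41 to -0.84). Nr1h4, the bile acid receptor FXR, was higher (log2 ratio 0.74, 95% interval 0.60 to 0.88; 0.49 with TMM, within 1.5-fold), and so was Nfkbia, an inhibitor of NF-kB, with 19 and 70 tags. Cebpb, Cebpa and Il1rap had log2 ratios of 0.65, 0.23 and 0.20, and Cebpb was within 1.5-fold under TMM. No test of a link between these genes and the complement genes was made.

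Markers of the cells in the samples were read beside these values. The shares to set beside their counts are again 15.3% lower and 34.4% higher (23.6% and 24.0% with TMM). Hepatocyte markers had 8 of 17 rows, 2 lower and 1 higher (2 and 0 with TMM), with a median log2 ratio of -0.04. Alb was at 6801.26 and 6912.08 TPM, Ahsg at 3894.91 and 3930.27 TPM and Ambp at 4659.71 and 3871.42 TPM, so hepatocyte transcripts were abundant in both libraries, as the tissue label states. The 3 markers past 1.5-fold, named after their values were seen, were Apob (804.10 and 147.32 TPM, log2 ratio -2.45), Fetub (-0.78) and Apoh (0.67). Macrophage markers were lower in 5 of 8 listed genes (6 with TMM) and higher in 0, with a median log2 ratio of -1.03, and their sum was 164.62 TPM in normal and 109.79 TPM in diabetic liver. Of the 3 with most tags, Cd5l had a log2 ratio of -0.04, Folr2 -1.31 and Csf1r -1.10. Their part in the values of C1qa, C1qc and the other complement genes was not tested, and in whole liver fewer cells of a type and less RNA per cell cannot be told apart. Of the other marker lists, endothelial markers (9 of 9 listed) had a median log2 ratio of -0.23, stellate markers (7 of 9) 0.52, cholangiocyte markers (3 of 6) 0.14, lymphocyte markers (3 of 9) -0.33, and erythroid markers (1 of 6) -0.23.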

How the data were processed

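Per the labels and the study's methods, poly(A) RNA of 1 normal and 1 diabetic db/db mouse liver library was made into DpnII tag libraries and sequenced on an Illumina 1G sequencer. The authors removed adaptors, compared clean tags with RefSeq and deposited tags per 1000000 clean tags (RPM, which they call TPM) with 2 decimals and 0.01 in place of 0. Genes with a mean under 1 have no row. The labels name the build mm9. The aligner and the allowed mismatches are not given in the sources used here. The study reports tags mapped to unique genes apart from tags mapped to multiple genes. It does not state whether tags shared by genes entered the deposited values.

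Whole tag counts were recovered from the step between values: 8513 of 8513 values above 0.01 in the normal library and 8536 of 8537 in the diabetic library lay within 0.1 tag of a whole number. Ratios are of the deposited values. Intervals of ratios are exact 95% Clopper-Pearson intervals of the tag ratio and exact conditional intervals for pairs of genes (scipy 1.17.1 in Python 3.11.15), tested on simulated data. The shares of clean tags have 95% Wilson score intervals. A gene counts as lower or higher from 1.5-fold, the threshold of the study. Alternatives were 4 other scalings (TMM trimmed 30% of ratios and 5% of levels), pseudocounts of 0.1 and 1, a 2-fold threshold, an FDR under 0.001 and a minimum mean of 5 TPM. With 1 library per group there is no replicate to leave out.

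The members and the lists of other genes (other complement, signalling, coagulation, acute phase, sex-biased and cell type markers) were chosen with earlier results of these data known. Named genes outside the members are, in the other complement and signalling lists, all those past 1.5-fold with an interval beyond it and also the 6 with most tags in each list, and in the comparison lists up to 3 with most tags. Of the other complement genes, 3 that the rule or the plot would show are not reported here by name, and they stay in the counts and medians. Positions and sequences come from GENCODE M21 and RefSeq on GRCm38, not from mm9.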

Additional observations from a re-analysis of the deposited data

How the results depend on the processing

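The 4 genes that were at least 1.5-fold lower kept that call under the 4 other scalings, both pseudocounts, a minimum mean of 5 TPM and the added FDR; under those scalings Hc and C2 joined them, making 6, and at a 2-fold threshold C6, C8a and C8b were left, making 3. The 1 higher gene, C3, was lost, leaving 0, under scaling to the sum of the listed genes, TMM, median-ratio and upper-quartile scaling and at the 2-fold threshold. Under those scalings, in that order, the log2 ratio of the summed members was -0.12, -0.11, -0.17 and -0.13, against 0.14 in the deposited values, and without C3 it was -0.24. Their median log2 ratio was -0.68, -0.68, -0.73 and -0.69, against -0.42. The 4 other scalings moved all 9 gene values by more than their counting intervals and the pseudocounts moved none. The cause of the shift between scalings was not tested. No paired analysis was possible because each group has 1 library. Depth limits only the low genes here, since each of the 9 genes had at least 495 tags, and counting error leaves out variation between animals.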

Other observations

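Other liver secretory genes gave values to set beside complement. Over all listed genes, 15.3% were lower and 34.4% higher by the same rule (23.6% and 24.0% with TMM). A count near these shares is no result about its list. Coagulation genes had 20 of 21 rows, of which 7 were at least 1.5-fold lower and 3 higher (8 and 0 with TMM), with a median log2 ratio of -0.03. Fgg, a fibrinogen chain, had a log2 ratio of -1.47, Fgb, another chain, -0.79, and Serpinc1, antithrombin, 0.83. The study's set of complement and coagulation genes chosen on these samples holds Fgg and Fgb too, so their direction is not independent evidence. Acute-phase genes had 15 of 21 rows, 2 lower and 3 higher (4 and 3 with TMM), with a median log2 ratio of 0.14. Hpx, hemopexin, had a log2 ratio of 0.37, Hp, haptoglobin, -0.51, and Hamp2, a hepcidin gene, 3.02. Male-biased liver genes had a median log2 ratio of -4.06, with Mup3 at 9992.58 TPM in normal and 1697.63 TPM in diabetic liver. Of the 10 listed female-biased genes 7 were at the placeholder value in the normal library. These lists share the libraries, so they are not independent of the complement values.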
